A study of Homo sapiens with 4 samples.

Results

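The 10 genes described here encode transcription factors of the AP-1 and C/EBP families: FOS, FOSB, FOSL1, FOSL2, JUN, JUNB, JUND, MAFF, CEBPB and CEBPD. They were chosen by name as regulators of secretory and stress genes, with earlier results of these data known, out of 60279 genes listed. All 10 were among the 14269 genes expressed highly enough to be compared. RNA sequencing was performed on SUM159 cells, a long-established line of triple-negative breast cancer (TNBC), with 1 library for each of 4 conditions. The cells were left untreated or received palbociclib, indisulam or both (the combination). Palbociclib blocks CDK4 and CDK6, kinases of the cell cycle, and indisulam brings the splicing factor RBM39 to a ubiquitin ligase, which leads to its degradation. The sample labels state 0.5 µM palbociclib and 2 µM indisulam for 10 days, whereas the series text states 2 µM and 3 µM for 16 h with technical duplicates. The labels defined the groups, and the dose, the duration and any pooling of duplicates could not be settled. All libraries came from 1 cell line, without replicates, so no difference had a replicate check and no p-value was computed.

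AP-1 is a dimer of basic leucine zipper proteins, in which a JUN protein pairs with another JUN or with a FOS protein, and FOS proteins do not form stable dimers with each other. FOS, FOSB, JUN and JUNB are immediate early genes that are transcribed within minutes of growth factor or stress signals, while FOSL1 (Fra-1) and FOSL2 (Fra-2) usually follow later, and FOSL1 is known for high activity in invasive and mesenchymal-like breast cancer cells. MAFF is a small MAF protein with a leucine zipper but no activation domain, and CEBPB and CEBPD are leucine zipper factors best known for driving cytokine and acute phase genes, including the senescence-associated secretory phenotype.

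Gene reads numbered 12555908 to 16712174 per library, and mitochondrially encoded genes took 4.90% to 7.33% of them. Levels are given as CPM, the read count of a gene relative to the total gene reads of its library, with intervals of 95% from Poisson counting error, which do not cover variation between cultures. To be called higher or lower, a gene needed a difference of 2-fold or more with a counting interval that left out a ratio of 1. Among markers of the line, VIM, which is typical of its mesenchymal-like state, stood at 2642 to 4598 CPM and CD44 at 706 to 883 CPM, whereas ESR1 did not exceed 1.11 CPM, PGR 0.209 CPM or CLDN3 0.159 CPM. CDH1 lay between 0.788 and 1.95 CPM. ERBB2, one of the receptors that define the triple-negative class by their lack of overexpression, was at 109.6 to 143 CPM. Of 5 markers of other cell types, ALB (0 or 1 read) and ACTA1 (0 to 6 reads) were near 0, while PTPRC (11.1 to 17.5 CPM), CD14 (3.95 to 9.24 CPM) and PECAM1 (15.2 to 40.9 CPM) were not. Their part in the results was not tested.

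The promoters of the genes were read first, because AP-1 genes are themselves controlled by leucine zipper factors of the CREB and ATF group. RefSeq promoter windows on GRCh38.p14 were read for 8 of the 10 genes, and the 250 bases before the transcription start were searched on both strands. FOSL1 and CEBPD were left out of this search, so nothing is said here about their promoters. TGACG, the core of the cAMP response element, was present in all 8 genes, in 8 of their 10 windows (MAFF and CEBPB have a pair each), and in 21.2% of 35116 promoter windows. The stretches around it are shown for FOS and FOSB, which had the widest range of levels between conditions together with MAFF, in 60 bases that also hold a TATAAA box in lower case near their right end. TATAAA was found in 4 of the 10 windows (of FOS, FOSB, JUNB and CEBPB) and in 10.7% of all promoters. Capitals mark TGACG, which began 64 bases before the start of FOS (chr14:75278748-75278807, plus strand) and 60 bases before that of FOSB (chr19:45467916-45467975, plus strand).
FOS: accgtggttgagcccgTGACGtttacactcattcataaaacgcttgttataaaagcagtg
FOSB: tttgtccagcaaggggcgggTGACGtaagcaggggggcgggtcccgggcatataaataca

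The longer palindrome TGANNTCA, of which TGACGTCA is the full cAMP response element and which can overlap TGACG, was found in 3 of the 10 windows (of JUN, JUND and MAFF) and in 10.1% of all promoters. It is shown in capitals for MAFF (chr22:38201929-38201958, plus strand) and JUN (chr1:58784096-58784125, minus strand), and the TGACG match of FOSL2 (chr2:28392780-28392809, plus strand) is set beside them as the FOS family gene that followed another course than FOS. The JUN match TGACATCA differs from the full element TGACGTCA and does not hold TGACG. The MAFF and FOSL2 stretches lie in annotated exons of other isoforms.
MAFF: ggccgggtcggTGACGTCAccgcatgactg
JUN: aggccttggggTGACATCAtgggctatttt
FOSL2: ggagtctggggtTGACGtgagtgaatccac

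Within the same 250 bases, the AP-1 site TGANTCA (6.57% of all promoters), the C/EBP half-site palindrome TTGCNNAA (9.05%) and the serum response CArG box (1.16%) had no match in the 8 genes. Only these spellings were counted as AP-1, C/EBP and CArG sites, so variants of them may lie within the 250 bases. Sites further upstream than these 250 bases were not searched, so these genes may also hold such sites there. A match is a run of letters and was not tied to binding here.

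The level of FOS, the founding AP-1 partner of JUN, was 190.3 CPM in the untreated library, 208 CPM with palbociclib, 59.7 CPM with indisulam and 16.4 CPM with the combination. FOS was therefore high in both libraries without indisulam and lowest with both drugs. Against untreated, it was lower by 1.67 on the log2 scale with indisulam (log2 ratio -1.67, interval -1.78 to -1.56) and 11.5-fold lower with the combination (-3.53, -3.72 to -3.34), the 52nd lowest ratio of all genes compared. The combination was also lower than indisulam alone (-1.86, -2.06 to -1.65), where FOS was again the 52nd lowest gene. The ratio of palbociclib to untreated was 0.13 (0.05 to 0.21) and was not called. In RNA from whole cultures, fewer cells that express a gene and less RNA per cell cannot be told apart.

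FOSB, a FOS paralog with the same timing, was measured at 29.5 CPM untreated, 64.1 CPM with palbociclib, 11.8 CPM with indisulam and 4.46 CPM with the combination, the last from 64 reads. Palbociclib alone thus gave the highest level and palbociclib with indisulam the lowest. FOSB rose with palbociclib (log2 ratio 1.12, 0.94 to 1.30), fell with indisulam (-1.31, -1.56 to -1.06) and fell with the combination (-2.71, -3.09 to -2.33). Between the combination and palbociclib the difference was 14.2-fold (-3.82, -4.19 to -3.46), the 33rd lowest ratio of all genes.

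FOSL1, the FOS family gene linked to invasive breast cancer cells, had 22.6 CPM in the untreated library, 39.6 CPM with palbociclib, 53.0 CPM with indisulam and 69.8 CPM with the combination. Every treated library was above the untreated one and the counting intervals of the 4 levels did not overlap. The ratio to untreated was called for indisulam (1.22, 1.03 to 1.42) and for the combination (1.62, 1.43 to 1.81), while that of palbociclib (0.81, 0.60 to 1.02) was below 2-fold.

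FOSL2 was at 146 CPM untreated, 133 CPM with palbociclib, 328 CPM with indisulam and 288 CPM with the combination, and so was high in both libraries with indisulam. It rose with indisulam (1.16, 1.09 to 1.24) and in the combination against palbociclib (1.11, 1.03 to 1.19). The combination against untreated fell just short of 2-fold at 0.97 (0.90 to 1.05).

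**Figure D1:**
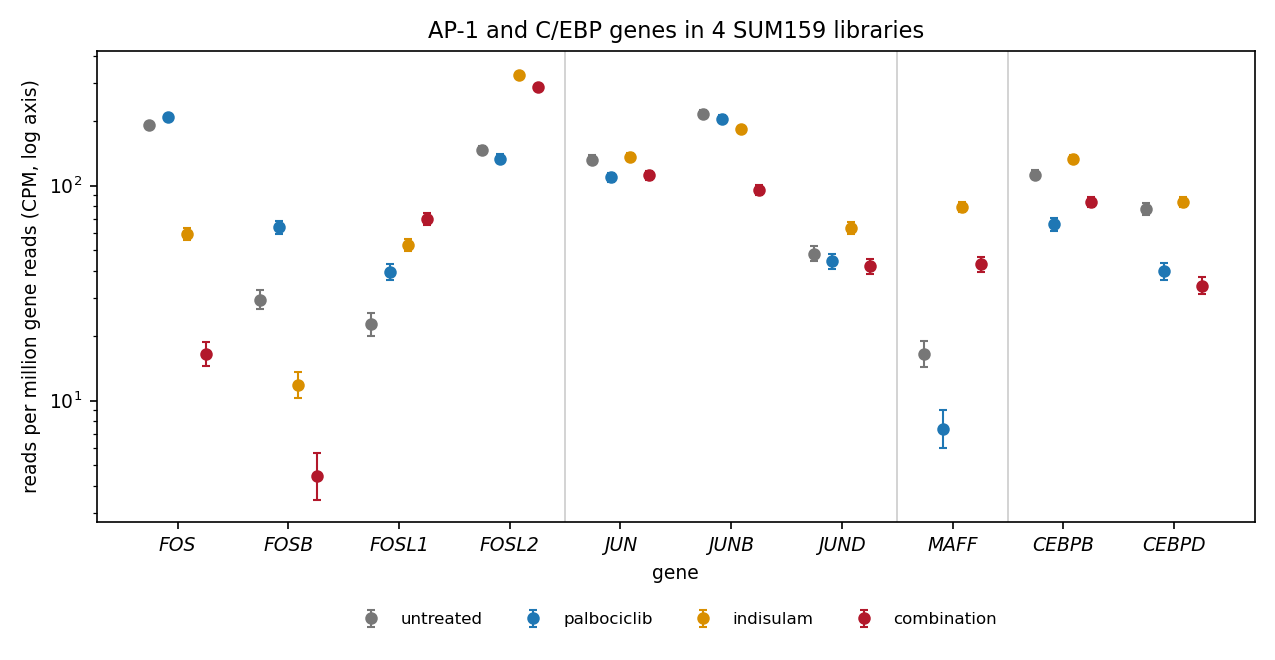
Level of each of the 10 genes in the 4 SUM159 libraries, in CPM on a log axis, with 1 point per library and bars for the 95% counting interval. FOS and FOSB are lowest in the combination library (16.4 and 4.46 CPM), FOSL1 is highest there (69.8 CPM), and FOSL2 and MAFF are highest with indisulam (328 and 79.5 CPM).

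The FOS family was next compared gene against gene, for which reads were divided by the length of annotated exon (CPM per kilobase, or RPKM). FOS made up 61.3% of the family in the untreated library (59.8% to 62.8%), 56.1% with palbociclib, 19.8% with indisulam and 6.20% with the combination (5.44% to 6.97%). FOSL1 went the other way, from 12.3% untreated to 18.04% with palbociclib, 29.6% with indisulam and 44.5% with the combination (42.8% to 46.2%). FOSL2 had 21.0%, 16.0%, 48.3% and 48.3%, and FOSB 5.44%, 9.91%, 2.25% and 0.965% in the same order of libraries. The untreated and palbociclib libraries thus held mostly FOS among family transcripts, and the combination library held mostly FOSL1 and FOSL2. The summed level of the family differed less, with 97.5 RPKM untreated, 116 RPKM with palbociclib, 94.7 RPKM with indisulam and 83.1 RPKM with the combination. With the length of the canonical transcript in place of all annotated exons, FOS had 67.8% of the family untreated and 8.41% with the combination.

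**Figure D2:**
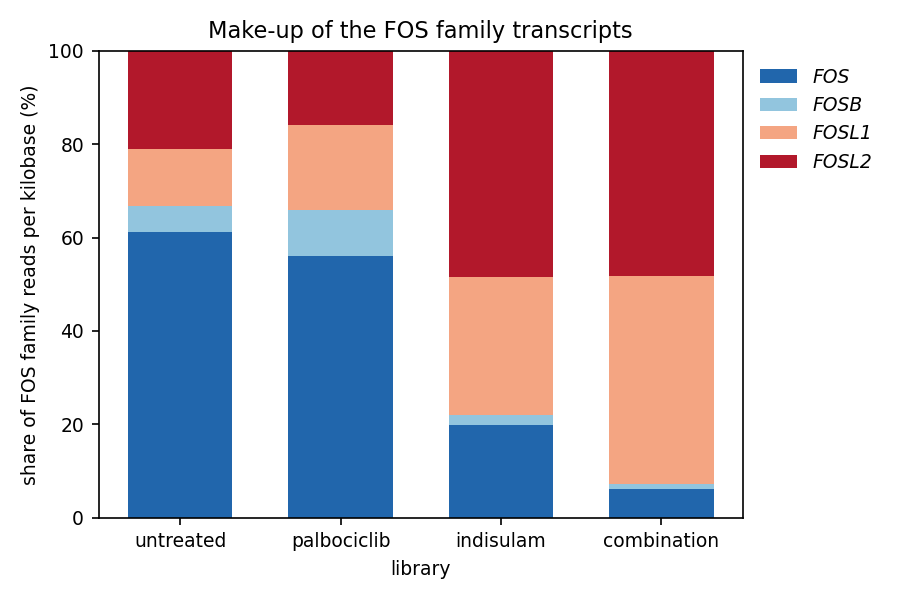
Share of the FOS family reads per kilobase of annotated exon (%) that each of the 4 FOS genes took in each library, stacked to 100. FOS falls from 61.3% in the untreated library to 6.20% in the combination library, where FOSL1 (44.5%) and FOSL2 (48.3%) make up most of the bar.

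The JUN genes, the obligate partners of FOS proteins, differed less between libraries. JUN was measured at 132 CPM untreated, 109 CPM with palbociclib, 136 CPM with indisulam and 112 CPM with the combination, the narrowest range of the 10 genes (0.32 on the log2 scale between the highest and lowest library). JUN was not called in any comparison. JUND, the JUN gene that is expressed most steadily in resting cells, had 48.3, 44.4, 63.5 and 42.2 CPM in the untreated, palbociclib, indisulam and combination libraries and was not called either. Its largest ratio was that of the combination to indisulam (-0.59, -0.73 to -0.44).

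JUNB, which antagonizes JUN at some promoters and restrains the cell cycle, was at 216 CPM untreated, 205 CPM with palbociclib, 183 CPM with indisulam and 95.5 CPM with the combination. The combination library held the lowest level, and the intervals of the untreated and palbociclib libraries overlapped. JUNB fell in the combination against untreated (-1.18, -1.27 to -1.08) and against palbociclib (-1.10, -1.19 to -1.01), and the ratio to indisulam was -0.94 (-1.03 to -0.85). JUNB took 65.8% of the JUN family reads per kilobase in the untreated library and 49.7% with the combination, while JUN took 20.3% and 29.4%. The family sum was 179 RPKM untreated, 165 RPKM with palbociclib, 171 RPKM with indisulam and 105 RPKM with the combination. The JUNB exon overlaps an exon of HOOK2 on the opposite strand, and HOOK2 was at 24.2, 23.9, 22.7 and 17.3 CPM in the same order. Whether strand was used in counting was not given in the sources used here, so reads shared by such a pair cannot be assigned.

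MAFF, the small MAF gene, was measured at 16.5 CPM untreated, 7.41 CPM with palbociclib, 79.5 CPM with indisulam and 43.0 CPM with the combination. Both libraries with indisulam were above both without it, and within each pair the library with palbociclib was the lower one. MAFF rose with indisulam (2.26, 2.05 to 2.48), with the combination (1.38, 1.15 to 1.61) and in the combination against palbociclib (2.53, 2.22 to 2.84), and fell with palbociclib alone (-1.15, -1.497 to -0.80). Indisulam and palbociclib differed most, by 10.6-fold (3.41, 3.11 to 3.71), the 61st highest ratio of all genes. The opposite-strand gene PLA2G6, which shares exon sequence with MAFF, was at 26.9, 19.7, 22.1 and 16.3 CPM and did not have this pattern.

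The C/EBP genes were both lower in the libraries that contained palbociclib. CEBPD had 77.6 CPM untreated, 39.9 CPM with palbociclib, 83.9 CPM with indisulam and 34.3 CPM with the combination. CEBPD fell in the combination against untreated (-1.18, -1.33 to -1.02) and against indisulam (-1.29, -1.44 to -1.14), and palbociclib against untreated (-0.96, -1.11 to -0.80) was just under 2-fold. CEBPB had 113 CPM untreated, 66.1 CPM with palbociclib, 133 CPM with indisulam and 83.8 CPM with the combination. The differences of CEBPB were smaller, -0.77 (-0.89 to -0.64) between palbociclib and untreated and -0.67 (-0.77 to -0.57) between the combination and indisulam, neither of which was called. CEBPB was lowest with palbociclib and CEBPD with the combination. Between the combination and palbociclib the ratio was 0.34 (0.21 to 0.47) for CEBPB and -0.22 (-0.40 to -0.04) for CEBPD, neither called. Both genes were higher with indisulam than with palbociclib, CEBPB by 1.01 (0.90 to 1.13) and CEBPD by 1.07 (0.92 to 1.22), which is so near the threshold that the CEBPB call was lost with 4 other scalings and the CEBPD call with 2. CEBPB-AS1, antisense to CEBPB, had 1 to 5 reads per library.

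Ordered by RPKM, JUNB was the highest of the 10 genes in every library, with 118 RPKM untreated and 52.2 RPKM with the combination. In the untreated library CEBPD (62.0 RPKM), CEBPB (61.2 RPKM) and FOS (59.7 RPKM) followed with overlapping counting intervals, and MAFF (2.94 RPKM) was lowest. In the combination library CEBPB (45.6 RPKM), FOSL2 (40.2 RPKM) and FOSL1 (37.0 RPKM) followed JUNB, of which FOSL2 and FOSL1 overlapped, and FOS (5.16 RPKM) and FOSB (0.803 RPKM) were lowest. FOS thus moved from the fourth place to the ninth. With the canonical transcript length FOS stood second in the untreated library at 90.5 RPKM.

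Taken as a list, 2 of the 10 genes were called for palbociclib against untreated, FOSB higher and MAFF lower, where 10.7% of all genes compared were called (5.85% higher and 4.89% lower). For indisulam against untreated 5 were called (FOSL1, FOSL2 and MAFF higher, FOS and FOSB lower) against 15.1% of all genes (8.39% higher and 6.69% lower). For the combination against untreated 6 were called (FOSL1 and MAFF higher, FOS, FOSB, JUNB and CEBPD lower) against 23.5% (12.9% higher and 10.5% lower). The combination against palbociclib gave 5 calls (FOSL2 and MAFF higher, FOS, FOSB and JUNB lower) against 16.9% (9.56% higher and 7.38% lower). Indisulam against palbociclib gave 6 (FOSL2, MAFF, CEBPB and CEBPD higher, FOS and FOSB lower) against 16.6% (8.81% higher and 7.78% lower). In the combination against indisulam the 3 genes called (FOS, FOSB and CEBPD) were all lower, against 8.19% of all genes (5.04% higher and 3.15% lower). The median log2 ratio of the 10 genes to untreated was -0.13 with palbociclib, 0.18 with indisulam and -0.33 with the combination, where the medians of all genes were -0.02, 0.06 and 0.05. It was -0.02 between the combination and palbociclib (0.07 over all genes) and 0.47 between indisulam and palbociclib (0.08 over all genes). Between the combination and indisulam it was -0.78 (-0.01 over all genes), with 9 of the 10 genes below 0 and FOSL1 alone above it at 0.40 (0.27 to 0.53). These comparisons share libraries and are not independent of each other. The 10 genes were chosen with earlier results of these data known, so their counts are a description and not a test.

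**Figure D3:**
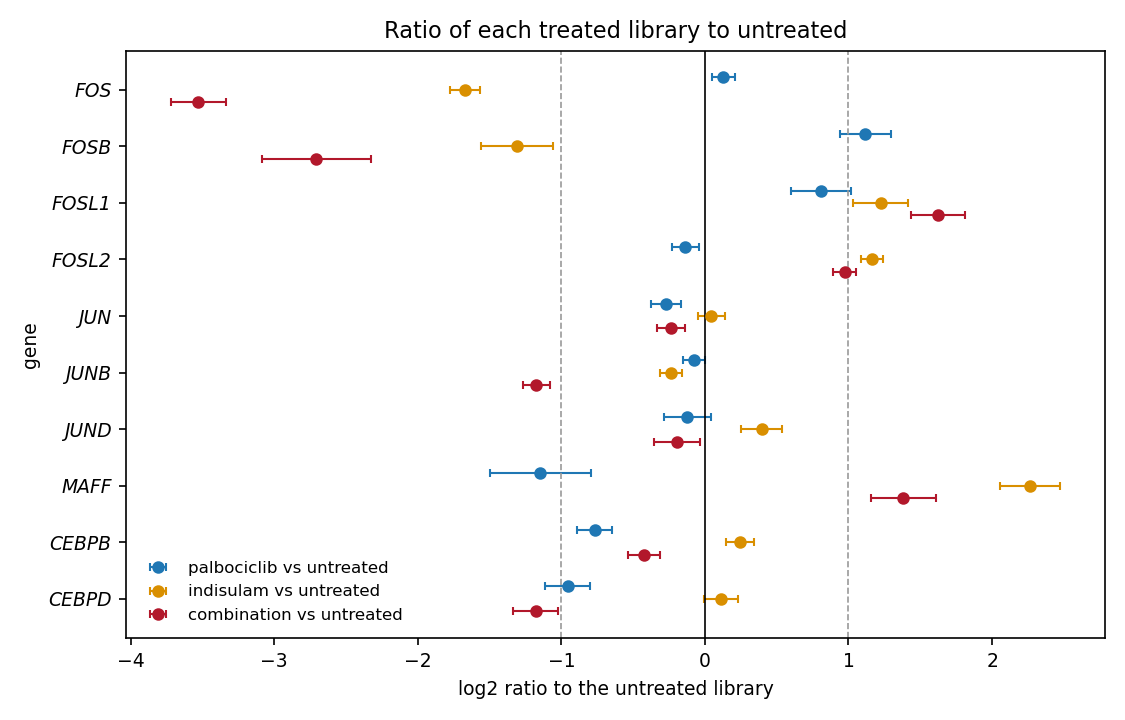
Log2 ratio of each treated library to the untreated library for the 10 genes, with bars for the 95% counting interval and dashed lines at a 2-fold difference. FOS and FOSB lie furthest to the left with the combination (-3.53 and -2.71), MAFF furthest to the right with indisulam (2.26), and JUN and JUND stay between the dashed lines.

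The effect of each drug was estimated both without and with the other drug, from pairs of libraries that have none in common. For indisulam, 8 of 10 genes had the same sign in both estimates (74.0% of all genes compared), with FOSL2 and MAFF called higher and FOS and FOSB called lower in both. Over the 14269 genes, 694 were called higher and 522 lower in both. For palbociclib, 8 of 10 had the same sign (67.6% of all), and none of the 10 was called the same way in both, where 284 of the 14269 genes were called higher and 178 lower in both. FOSB was called in opposite ways, as were 28 of all genes, at 1.12 without indisulam and -1.40 (-1.80 to -0.99) with it. FOS was 0.13 without indisulam and -1.86 with it.

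The combination was then set against the sum of the single-drug log2 ratios. For FOS the sum was -1.54 and the combination gave -3.53, a departure of -1.99 (-2.20 to -1.77). The sum for FOSB was -0.19 and the combination gave -2.71, a departure of -2.51 (-2.96 to -2.07), the 51st lowest of all genes. These were the 2 genes of 10 that departed by at least 2-fold, both below the sum, as did 7.77% of all genes (3.93% above the sum and 3.84% below). JUNB followed at -0.86 (-0.98 to -0.74), below the threshold. FOSL2 (-0.05, -0.16 to 0.06), JUN (-0.01, -0.15 to 0.13), CEBPB (0.10, -0.06 to 0.26) and MAFF (0.26, -0.11 to 0.64) had intervals that included 0. With no replicates, the robust spread of the departure over genes was used as a scale. Its standard deviation was 0.40 for genes of at least 100 CPM and 0.37 for those between 20 and 100 CPM. This spread describes a typical gene and does not limit the noise of any single gene, so chance was not excluded. The departure of FOS was 5.01 times the spread in its CPM range and that of FOSB 6.80 times.

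**Figure D4:**
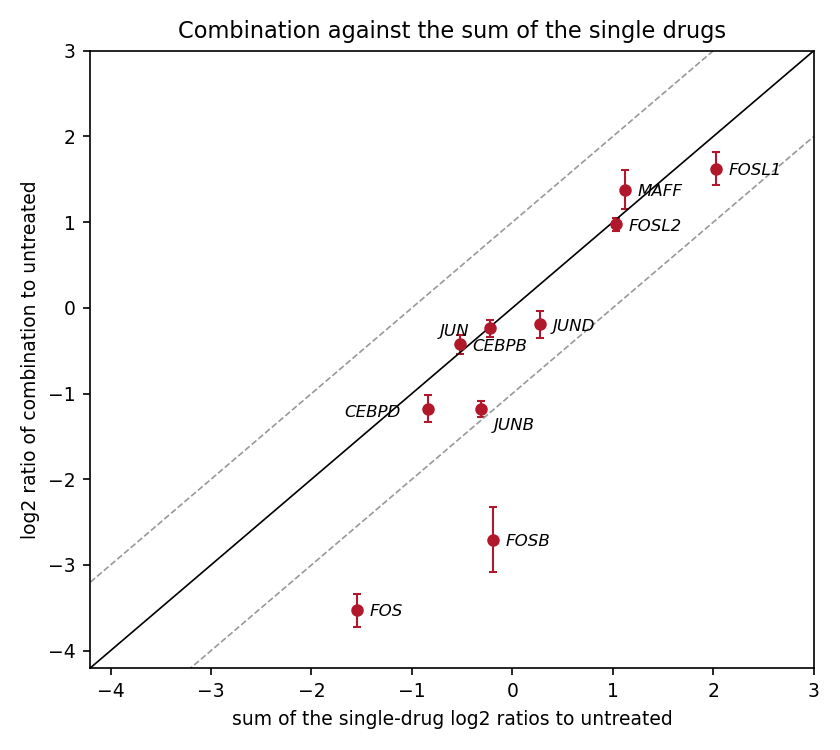
Log2 ratio of combination to untreated (vertical) against the summed log2 ratios of palbociclib and indisulam alone (horizontal) for the 10 genes, with vertical bars for the 95% counting interval. The solid line marks equality and the dashed lines a 2-fold departure, below which lie FOS (departure -1.99) and FOSB (-2.51).

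For a single ratio a scale was derived by scaling down the spread of the departure. It was 0.28 in genes of at least 100 CPM and 0.26 in those between 20 and 100 CPM. This scale was not measured from the single ratios and does not give how widely those ranged over genes. The ratio of combination to untreated was 12.6 times this scale for FOS, 10.3 times for FOSB and 6.21 times for FOSL1. It was 5.28 times for MAFF, 4.50 times for CEBPD and 4.20 times for JUNB. For JUN it was 0.839 times and for JUND 0.739 times, less than the scale in both cases.

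Other genes around AP-1 and C/EBP were followed in 5 lists of textbook members. The lists were chosen with earlier results of these data known, so their counts are a description and not a test. The counts are to be read against 12.9% of all genes higher and 10.5% lower with the combination and a median of 0.05. Of 24 immediate early genes, 21 were compared. With the combination 7 were lower than untreated and 2 (EGR2 and SGK1) higher, with a median log2 ratio of -0.30. Some of these calls rest on few reads: EGR2 had 16 untreated and 56 with the combination, EGR3 25 and 13, and KLF2 26 and 13. EGR1, a zinc finger factor induced by the same signals as FOS, was at 247 CPM untreated, 287 CPM with palbociclib, 146 CPM with indisulam and 37.0 CPM with the combination. It fell with the combination by 2.73 on the log2 scale (-2.73, -2.87 to -2.60), and its departure from the sum of the single drugs was -2.19. NR4A1, an orphan nuclear receptor (-1.90), ZFP36, which promotes decay of cytokine mRNAs (-1.81), and BTG2, an antiproliferative gene (-1.77), also fell. Thus part of the immediate early list was lower with the combination, and 12 of its 21 genes were not called.

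Of 17 other leucine zipper genes, 13 were compared and 5 were higher with the combination, none lower, with a median of 0.19. The count was 3 with TMM factors and 2 among genes at a mean of 5 CPM. ATF3, a stress-induced repressor, had 2.71 CPM untreated, 2.36 CPM with palbociclib, 12.9 CPM with indisulam and 11.7 CPM with the combination (2.08, 1.56 to 2.61). MAFK, a small MAF relative of MAFF, was at 35.9, 40.4, 79.6 and 76.0 CPM in the same order (1.08, 0.92 to 1.24), and was not called with TMM factors (0.99). Both were high in the libraries that contained indisulam.

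Among 27 kinases and factors upstream of FOS and JUN, 26 were compared and 22 were not called, with a median of 0.17. MAPK3 (ERK1) was at 86.9 CPM untreated, 47.0 CPM with palbociclib, 48.5 CPM with indisulam and 26.8 CPM with the combination. It fell with the combination (-1.69, -1.86 to -1.53), as did MAPK10 (-1.29), which had only 42 reads untreated and 19 with the combination. MAPK13, a p38 kinase (1.63), and MRTFA, a coactivator of the serum response factor (1.26), rose. The RNA level of a kinase does not give its activity.

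The known targets of these factors were higher on balance, in lists chosen with earlier results of these data known. Of 22 AP-1 targets, 19 were compared, and 13 rose and 1 (HMOX1, heme oxygenase, -2.15) fell with the combination, with a median of 1.28. The median was the same with MMP13, which had 0 reads untreated and 62 with the combination (at least 18.1-fold higher against a floor of 3 reads in the untreated library), at its bound. MMP1, interstitial collagenase, was at 1.67 CPM untreated, 1.26 CPM with palbociclib, 41.8 CPM with indisulam and 130 CPM with the combination (6.22, 5.61 to 6.83). CSF2, the cytokine GM-CSF, had 1 read untreated and 888 with the combination (8.68, 6.62 to 10.74). MMP3 (5.83) and CXCL8 (5.34) also rose. CXCL8 was at 396 CPM with indisulam alone and 368 CPM with the combination. Of 22 C/EBP targets, 21 were compared, and 18 rose and 1 (PPARG, -1.62) fell, with a median of 2.39. The cytokine genes CXCL1 (6.29), CXCL8, IL1B (4.43) and IL6 (4.28) had the largest ratios of the better expressed targets (mean of at least 5 CPM). Higher targets were not confined to the combination. With indisulam alone 7 AP-1 and 13 C/EBP targets were higher (8.39% of all genes), and 1 and 0 lower (6.69%). With palbociclib alone 5 and 11 were higher (5.85%), and 2 and 1 lower (4.89%). Some of these palbociclib calls rest on few reads. CSF2 had 1 untreated and 47 with palbociclib, CCL2 1 and 10, MMP3 5 and 16, and HP 2 and 71. The lists share CCL2, CXCL8 and IL6, and many of their genes also answer to other factors. FOS, FOSB, JUNB and CEBPD themselves were lower in the combination library, and FOSL1 and MAFF higher.

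**Figure D5:**
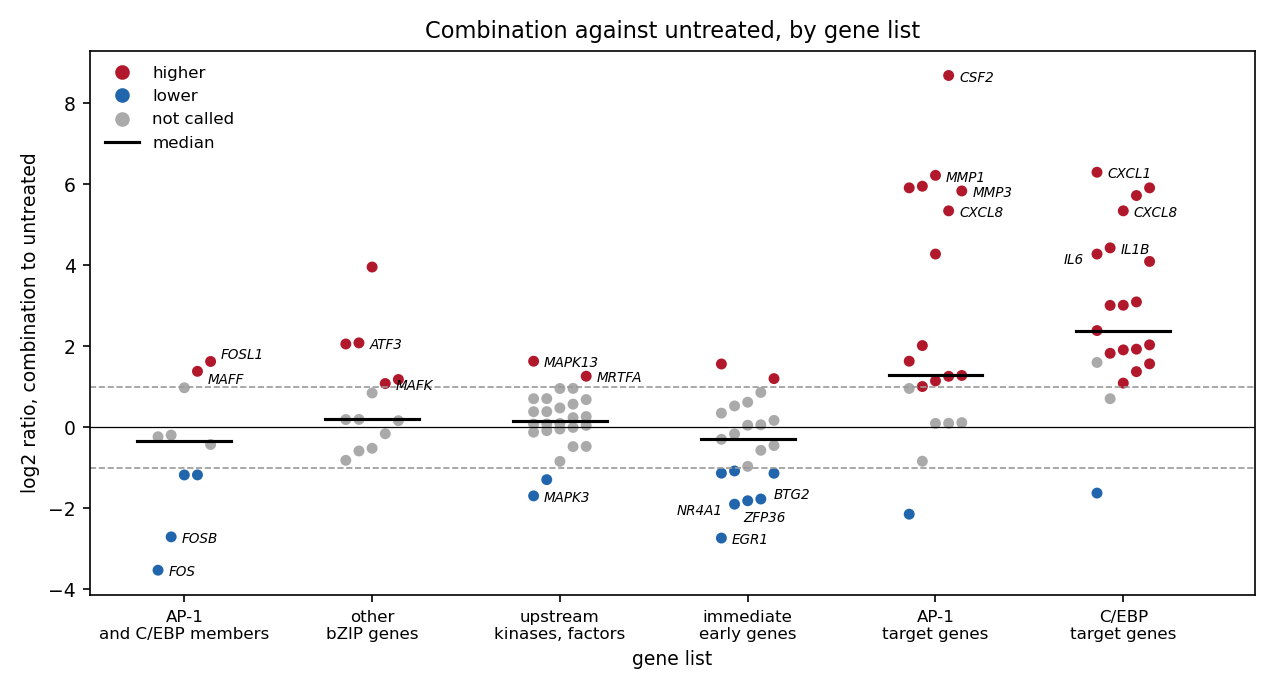
Log2 ratio of combination to untreated for every gene compared in the AP-1 and C/EBP members and in 5 lists around them, with 1 point per gene, red for genes called higher, blue for lower and grey for not called, black bars for list medians and dashed lines at a 2-fold difference. The target lists have medians of 1.28 and 2.39, while the immediate early list (-0.30) and the members (-0.33) lie below 0.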

How the data were processed

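RNA sequencing counts of 4 SUM159 libraries, 1 per condition, were used as the authors deposited them, as whole-number read counts per Ensembl gene without normalization. The submitters' processing notes name TopHat2 2.1, HTSeq and GRCh38, while the setting for strand and the release of the annotation were not given in the sources used here. Tallies of reads that were assigned to no gene (9.61% to 10.1% of all) were left out. Each count was scaled by the summed gene counts of its library to the mean sum, a pseudocount of 1 scaled count was added, and log2 ratios were given 95% Poisson intervals. Of 29056 genes with a read, 14269 reached an average of 1 CPM and were compared. A total of 3 reads, the floor, equalled 0.180 to 0.239 CPM. The script was tested on simulated data with Poisson counting error only, which hold no variation between cultures. No p-value was computed with 1 library per condition. Symbols and exon lengths were from GENCODE 44 on GRCh38 and promoters from RefSeq (GRCh38.p14). The 10 genes and the 5 lists were chosen with earlier results of these data known. From each list up to 4 genes called in the combination against untreated, with the largest ratio at a mean of 5 CPM or more, were named, and the other genes given by name were chosen after their values were seen. The 3 genes most like each of the 3 widest-ranging members were found by Euclidean distance over the log2 ratios to untreated. Alternatives were TMM and upper-quartile factors (edgeR 4.0.16), DESeq2 1.42.0 size factors, totals without mitochondrial genes, pseudocounts of 0.25 and 5, no filter or a mean of 5 CPM, a 1.5-fold threshold and, added after seeing the data, canonical transcript lengths. Scripts ran in Python 3.11.15 and R 4.3.3.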

Additional observations from a re-analysis of the deposited data

Results flagged for a closer look

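FOS and FOSB stood out because the log2 ratio for palbociclib differed between cells without and with indisulam. For FOS, the log2 ratio was 0.13 without indisulam and -1.86 with it, a difference of -1.99. The former was below 2-fold, was not called and was 0.459 times the scale derived for a single ratio. For FOSB, the log2 ratio was 1.12 without indisulam and -1.40 with it, a difference of -2.51. FOSB was called in opposite ways and FOS was not. With 1 library per condition the difference was not tested. Set against the spread of such differences over genes, which describes a typical gene, it was 5.01 times that spread for FOS and 6.80 times for FOSB.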

How the results depend on the processing

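No paired analysis was possible because there was 1 library per condition, and for the same reason no library could be left out. Of the counts of called members, those for palbociclib against untreated and the combination against indisulam moved by more than 1.5 times, each with a 1.5-fold threshold. The former became 5 (2 higher, 3 lower, with 24.8% of all genes called) in place of 2, and the latter became 7 (all lower, with 22.2% of all genes called) in place of 3. No member ratio that was called changed sign under the 6 other scalings and pseudocounts. JUN, never called, changed sign in indisulam against untreated with 3 of them, in the combination against palbociclib with 3 and in the departure from the sum of the drugs with 1. CEBPB, called for indisulam against palbociclib at 1.01, gave 0.93 to 0.97 with TMM, upper-quartile and DESeq2 factors and without mitochondrial genes, and CEBPD gave 0.99 with TMM and upper-quartile factors. Among the other lists, the 5 leucine zipper genes called with the combination became 3 with TMM factors and 2 at a mean of 5 CPM. A 1.5-fold threshold moved 18 of the 42 counts of calls over all lists by more than 1.5 times, a mean of 5 CPM moved 9, and each other setting at most 2. Of 36 family shares, 21 moved beyond their counting interval with canonical transcript lengths. Depth limits FOSB in the combination library most, with 64 reads.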

Other observations

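The genes whose ratios to untreated were nearest to those of the 3 members with the widest range were sought among 11366 genes, as a description over 3 ratios from 4 libraries. FOS was nearest to ZNF467 (Euclidean distance 0.43), PODNL1 (0.50) and HR (0.52). ZNF467 was at 13.7 CPM untreated and 0.975 CPM with the combination. FOSB was nearest to ABCC3 (0.74), an organic anion transporter that was at 547 CPM untreated, 735 CPM with palbociclib, 259.8 CPM with indisulam and 92.2 CPM with the combination, followed by FMO2 (0.78) and H19 (0.84). MAFF was nearest to CRISPLD2 (0.35), which was at 38.5, 14.7, 171 and 118 CPM in the same order, PDLIM5 (0.48) and SLC7A2 (0.51).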
